A study of Mus musculus with 6 samples.

Results

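The genes described here are 7 members of the Lin28, Trim71 and let-7 axis, out of 57010 genes in the deposited count table. They are Lin28a, Lin28b, Trim71, Hmga2 and Dis3l2, together with Gm13061 and C130032M10Rik, which lie on the opposite strand at Lin28a and at Trim71. Rows were taken by matching gene identifiers to these symbols, and all 7 were found. The members were chosen from the contrast between stem cells and neurons in this same table, so their levels are given as a description with no test. The table holds 6 bulk RNA-seq libraries from wild-type mouse cells, and the sample titles name no perturbation. The ESC group is 3 libraries of a cultured line called WT ESC, pluripotent embryonic stem cells kept in standard medium, and the neuron group is 3 libraries of primary cortical neurons taken from cortex at embryonic day 16.5 and grown for 7 days in vitro. The samples served as the pluripotent and the neuronal end of a developmental trajectory in work on Rai1. The labels name neither strain nor sex, and do not say whether replicates came from separate cultures or animals, so p-values measure the spread between these libraries, which may be technical.

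LIN28A and LIN28B are RNA-binding proteins that grip the terminal loop of let-7 precursors and block their maturation. They recruit the uridylyltransferases TUT4 and TUT7, which add a uridine tail, and the exonuclease DIS3L2 then degrades the tailed precursor. Mature let-7 in turn represses Lin28a, Lin28b, Trim71 and Hmga2 through sites in their 3′ untranslated regions, and the axis is known for separating stem and embryonic cells, with high LIN28, from differentiated tissue, with high let-7. TRIM71 is a ubiquitin ligase and mRNA repressor of early embryos and stem cells, and HMGA2 is a chromatin architectural protein of growing embryonic tissue.

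The microRNA sequences are shown because the target sites in the members are defined by their seed. RefSeq (GRCm38.p6) lists 9 distinct mature let-7 and miR-98 sequences of 22 bases in mouse, given 5′ to 3′ with the seed, bases 2 to 8, in capitals:
let-7a-5p: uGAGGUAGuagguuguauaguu
let-7b-5p: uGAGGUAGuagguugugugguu
let-7c-5p: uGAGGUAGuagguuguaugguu
let-7d-5p: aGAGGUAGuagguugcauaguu
let-7e-5p: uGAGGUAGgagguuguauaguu
let-7f-5p: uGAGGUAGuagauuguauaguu
let-7g-5p: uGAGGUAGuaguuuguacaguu
let-7i-5p: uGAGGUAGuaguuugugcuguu
miR-98-5p: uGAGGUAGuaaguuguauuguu
All 9 carry the same seed, so they form 1 seed family, and they differ from each other outside it.

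LIN28 is known to contact a GGAG stretch in the loop of let-7 precursors. Of the 12 let-7 family hairpins in RefSeq, 9 hold GGAG between the arms, 3 or 4 bases before the 3p arm. Mir98, Mirlet7b and Mirlet7c-2 do not. The hairpins held by the noncoding transcripts Mir100hg, Mir99ahg and Lncppara, described below, are shown 5′ to 3′, with GGAG in capitals where it is present. Mirlet7a-2 is at chr9:41536716-41536811 (plus strand), Mirlet7c-1 at chr16:77599657-77599750 (plus strand), Mirlet7b at chr15:85707319-85707403 (plus strand) and Mirlet7c-2 at chr15:85706603-85706697 (plus strand), in GRCm38.p6:
Mirlet7a-2: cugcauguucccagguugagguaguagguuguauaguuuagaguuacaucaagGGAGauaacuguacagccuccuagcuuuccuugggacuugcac
Mirlet7c-1: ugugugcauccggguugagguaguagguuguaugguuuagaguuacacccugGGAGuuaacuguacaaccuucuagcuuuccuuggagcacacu
Mirlet7b: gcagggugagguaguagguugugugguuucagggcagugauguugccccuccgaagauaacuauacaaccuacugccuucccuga
Mirlet7c-2: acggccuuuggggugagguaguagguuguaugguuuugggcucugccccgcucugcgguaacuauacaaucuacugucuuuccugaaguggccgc
The printed Mirlet7a-2 and Mirlet7c-1 hairpins hold the stretch, and those of Mirlet7b and Mirlet7c-2 lack it.

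Matches to the let-7 seed were counted in the 3′ untranslated regions of GENCODE M21 transcripts (GRCm38). A match is the 7 letters CTACCTC on the transcript's strand, and for each gene the coding transcript with the longest 3′ untranslated region was read. Lin28a held 2 matches in 2775 bases, Lin28b 4 in 4445 bases, Trim71 4 in 5512 bases and Hmga2 4 in 3014 bases. Of 21008 genes with such a region, 12 held at least 4 matches, which is 0.057%, and 226 held at least 2, which is 1.076%. Length alone raises the chance of a match. Among genes whose region was within 20% of the length of each member's, 14.4% held any match for Lin28a, 24.2% for Lin28b, 29.5% for Trim71 and 15.5% for Hmga2. Dis3l2, which degrades let-7 precursors, had 350 bases and 0 matches, and 2.9% of genes of like length held any. The sites below are 30 bases of transcript each, 5′ to 3′, with the seed match in capitals. They are shown because all of the Trim71 and Lin28a matches are followed by A, the form of seed site known to repress most strongly, whereas 1 of 4 is in Lin28b and 1 of 4 in Hmga2:
Lin28a bases 909 to 915 of the region: ttggagtgcacagcctgttgaaCTACCTCa
Lin28a bases 1547 to 1553: atgctttgagatcgccacaaacCTACCTCa
Trim71 bases 166 to 172: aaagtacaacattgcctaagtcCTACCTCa
Trim71 bases 262 to 268: cctgtgaagtgataatttctatCTACCTCa
Trim71 bases 3591 to 3597: gattttgtttagtatggattttCTACCTCa
Trim71 bases 3617 to 3623: ctcaattttggcaaaaagttgtCTACCTCa
Lin28b bases 36 to 42: tcccttcacccgggcgggaagtCTACCTCa
Hmga2 bases 58 to 64: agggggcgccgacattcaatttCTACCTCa
A match is a description of the sequence and does not show that the site is used in these cells.

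Total counts were 1368303 to 1775055 in the ESC libraries and 513425 to 624792 in the neuron libraries. Levels are given as CPM, counts per 1000000 of the normalised library total, on which 3 counts correspond to 2.26 to 2.90 CPM in ESC and 3.92 to 4.81 CPM in neuron libraries. Levels under this floor were not detectable at this depth, and floors and intervals here cover counting error only. The strand setting of the authors' counting is not given in the sources used here and may not match that of the libraries, so counts of a gene and of a gene overlapping it on the opposite strand cannot be told apart with certainty. The 10 ESC markers taken alone summed to 166 to 249 CPM in ESC and 2.61 to 4.81 CPM in neuron libraries. With the genes opposite to them the sums were 13678 to 14410 CPM in ESC and again 2.61 to 4.81 CPM in neuron libraries. The 10 neuron markers taken alone went against the labels, at 84.2 to 85.8 CPM in ESC and 54.5 to 70.5 CPM in neuron libraries, and 4 of them had fewer than 10 counts in every library. Summed with the genes opposite to them they reached 221 to 258 CPM in ESC and 2067 to 2410 CPM in neuron libraries. Summed likewise, 6 astrocyte markers stood at 172 to 204 against 1341 to 1907 CPM, 4 neural progenitor markers at 7.24 to 13.5 against 429 to 535 CPM and 5 oligodendrocyte-lineage markers at 28.1 to 29.9 against 401 to 510 CPM. The 5 microglial markers taken alone stood at 201 to 266 against 129.8 to 145 CPM, with C1qa at 0, and 0 of 5 fibroblast markers reached 10 counts, with Lum at 0. The part of other cell types in the values below was not tested, and in bulk libraries fewer cells of a type and less RNA per cell cannot be told apart. The labels' batch entry splits the samples as the groups do, so batch and group cannot be told apart either, and the library names of neuron replicates 2 and 3 hold the unexplained word empty.

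Most of the signal at the Lin28a and Trim71 loci sat on the opposite-strand genes, and both loci stood higher in ESC. The first trait is common in this table and not particular to these loci. In 77.6% of 754 overlapping pairs of a coding and another gene, the coding gene held under 10% of the ESC counts. Of the 7 members, 3 passed the low-count filter (Gm13061, Trim71 and C130032M10Rik), so the values of these 3 do not stand for the others. The ESC and neuron libraries did not overlap for Lin28a, Gm13061, Trim71 and C130032M10Rik. They overlapped for Lin28b, Hmga2 and Dis3l2, which were at or near the floor of 3 counts. The share of all genes whose libraries do not overlap is not given here, so nothing is read from this split. Over the 7150 genes that passed the filter, 85.6% were called different by edgeR at an adjusted p under 0.05, 47.0% higher and 38.6% lower in neurons. Since the members were picked from this contrast, nothing is read from the members set against that background.

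**Figure D1:**
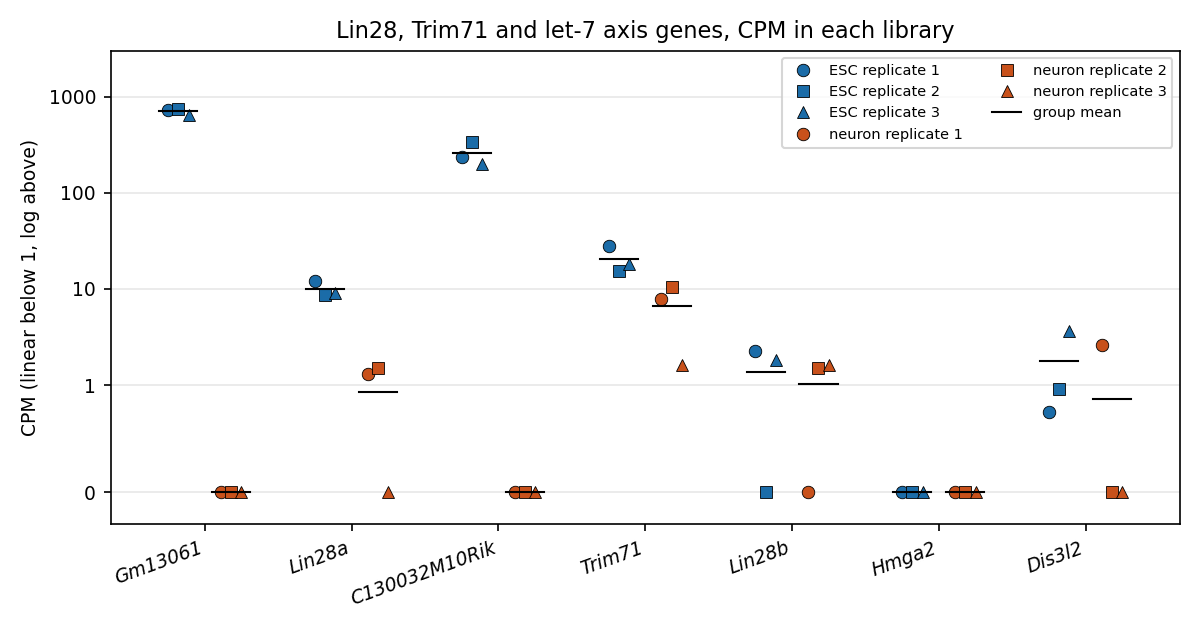
Level of each of the 7 members in every library, in CPM (linear below 1, logarithmic above), with blue symbols for ESC, orange for neuron libraries and a bar at each group mean. Gm13061 and C130032M10Rik lie between 199 and 748 CPM in ESC and at 0 in neuron libraries, Lin28a and Trim71 lie between 8.71 and 27.9 CPM in ESC, and Lin28b, Hmga2 and Dis3l2 stay under 4 CPM.

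Lin28a (ENSMUSG00000050966.10) occupies chromosome 4 from 133730641 to 133746152 on the minus strand in the deposited table, with 3996 exonic bases in 7 exons. Its counts were 16, 9 and 10 in the ESC libraries against 1, 1 and 0 in the neuron libraries, in the order of replicates 1 to 3. The mean was 9.93 ± 1.83 CPM in ESC and 0.932 ± 0.812 CPM in neurons (SD, n = 3 each). All 3 ESC libraries lay above all 3 neuron libraries, and the neuron counts were under the floor of 3 counts. Lin28a did not pass the filter and had no fitted fold change.

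Gm13061 (ENSMUSG00000087288.2) is a noncoding gene on the plus strand of chromosome 4, from 133745458 to 133747180, with 664 exonic bases in 2 exons. It had 969, 773 and 716 counts in ESC against 0 in every neuron library. That is 729, 748 and 648 CPM in the ESC replicates, a mean of 708 ± 53.1 CPM (SD, n = 3). The 3 ESC libraries lay close together, and against a floor of 3 counts per neuron library Gm13061 was at least 161-fold lower in neurons. The fitted log2 fold change was −12.35 (SE 0.37), a value that depends on the prior count because the neuron counts are 0. Per kb of exon, the ESC level was 1067 ± 80.0 CPM for Gm13061 and 2.49 ± 0.459 CPM for Lin28a.

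The genes run head to head across the Lin28a start. Of the exonic bases of Gm13061, 234 (35.2%) lie opposite an exon of Lin28a, 0 lie opposite its introns and 430 lie upstream of it, and the shared bases make up 5.86% of the Lin28a exons. For the coding transcript of Lin28a in GENCODE M21, the shared exonic bases are 103, bases 132 to 234 of its mRNA, all of them coding. It is shown here in the sense of Lin28a, in capitals throughout, because reads from it could belong to either gene:
Lin28a shared with Gm13061: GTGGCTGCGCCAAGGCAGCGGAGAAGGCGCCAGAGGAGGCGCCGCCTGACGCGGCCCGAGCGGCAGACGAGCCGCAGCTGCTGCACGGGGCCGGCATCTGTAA
Read together, the locus had 985, 782 and 726 counts in ESC against 1, 1 and 0 in neurons. Lin28a itself held 1.62% of the locus counts in ESC replicate 1 (exact Clopper-Pearson 95% interval 0.931 to 2.62), 1.15% in replicate 2 (0.528 to 2.17) and 1.38% in replicate 3 (0.662 to 2.52). The 3 intervals overlap. The summed locus was at 718 ± 53.6 CPM in ESC and 0.932 ± 0.812 CPM in neurons, with a fitted log2 fold change of −9.32.

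**Figure D2:**
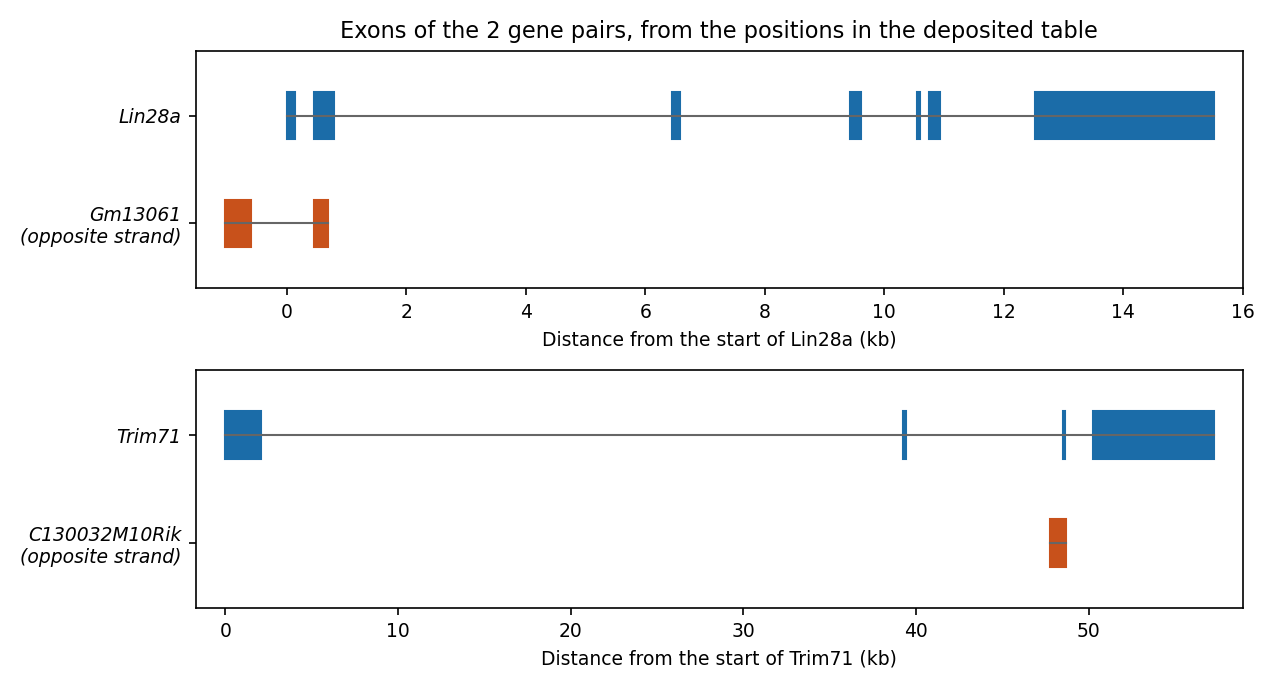
Exons (boxes) of Lin28a with Gm13061 and of Trim71 with C130032M10Rik, by distance in kb from the start of the coding gene, drawn from the positions in the deposited table. Gm13061 straddles the start of Lin28a, whereas C130032M10Rik lies inside Trim71 and covers a whole internal exon of 135 bases.

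Lin28b (ENSMUSG00000063804.9), the paralogue of Lin28a, lies on the minus strand of chromosome 10 from 45252716 to 45362491, with 9065 exonic bases. No other gene of the table lies within its span on either strand. Its counts were 3, 0 and 2 in ESC against 0, 1 and 1 in neurons, or 1.36 ± 1.2 and 1.03 ± 0.895 CPM (SD, n = 3 each). The groups overlapped and every library was at or under 3 counts, so no difference in Lin28b was detectable at this depth.

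Dis3l2 (ENSMUSG00000053333.16), the exonuclease of uridylated let-7 precursors, spans chromosome 1 from 86631530 to 86977817 on the plus strand, with 8901 exonic bases. It had 1, 1 and 4 counts in ESC against 2, 0 and 0 in neurons, a mean of 1.78 ± 1.6 and 0.870 ± 1.51 CPM (SD, n = 3 each). The groups overlapped, and 5 of the 6 libraries were under 3 counts. No exon of another gene lies opposite its exons. The 3 genes on the opposite strand within its span summed to 7, 6 and 2 counts in ESC against 6, 5 and 10 in neurons, so the Dis3l2 locus held few counts on either strand.

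Trim71 (ENSMUSG00000079259.3) spans chromosome 9 from 114336201 to 114393437 on the minus strand, with 9332 exonic bases in 4 exons. Its counts were 37, 16 and 20 in ESC against 6, 7 and 1 in neurons. The mean was 20.5 ± 6.52 CPM in ESC and 6.62 ± 4.54 CPM in neurons (SD, n = 3 each). The lowest ESC library, at 15.5 CPM, lay above the highest neuron library, at 10.4 CPM. The fitted log2 fold change was −1.60 (SE 0.44), −0.88 on total counts, and it turned to 1.08 when libraries were scaled to 27 housekeeping genes, so the direction for Trim71 alone depended on the scaling. These housekeeping genes held 0.198 to 0.244% of counts in ESC and 0.0554 to 0.0580% in neuron libraries, and that scaling moved the median over all 7150 fitted genes from 0.37 to 3.05.

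C130032M10Rik (ENSMUSG00000097821.3) lies on the plus strand of chromosome 9 from 114344765 to 114345669, a gene with 1 exon of 905 bases that GENCODE M21 lists as protein coding. It had 315, 353 and 220 counts in ESC against 0 in every neuron library. The ESC replicates were at 237, 341 and 199 CPM, a mean of 259 ± 73.7 CPM (SD, n = 3). The ESC libraries spread more widely than for Gm13061, and against 3 counts per neuron library C130032M10Rik was at least 58.9-fold lower in neurons. Its fitted log2 fold change was −10.90 (SE 0.56), and −10.40 under the housekeeping scaling. With 0 neuron counts no scaling could turn its direction.

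C130032M10Rik lies wholly within Trim71. Of its bases, 135 (14.9%) lie opposite a Trim71 exon and 770 opposite introns, and the shared bases are 1.45% of the Trim71 exons. In the M21 transcripts the shared bases are also 135, all coding, at 2234 to 2368 of the Trim71 mRNA, given in the sense of Trim71 and in capitals throughout:
Trim71 shared with C130032M10Rik: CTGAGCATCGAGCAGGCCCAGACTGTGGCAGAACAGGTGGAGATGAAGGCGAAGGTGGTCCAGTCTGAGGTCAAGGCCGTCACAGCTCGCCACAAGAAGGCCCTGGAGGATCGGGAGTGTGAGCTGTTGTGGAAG
The locus as a whole had 352, 369 and 240 counts in ESC against 6, 7 and 1 in neurons. Trim71 held 10.5% of the locus counts in ESC replicate 1 (exact Clopper-Pearson 95% interval 7.51 to 14.2), 4.34% in replicate 2 (2.50 to 6.95) and 8.33% in replicate 3 (5.16 to 12.6). The intervals of replicates 1 and 2 do not overlap, and that of replicate 3 overlaps both. In neurons the 14 counts of the locus were on Trim71, and the summed locus had a log2 fold change of −5.32.

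Both loci were set against the 754 exclusive pairs of a coding gene with an overlapping gene of another type on the opposite strand that had at least 100 counts in the ESC libraries together. The median pair had 2.44% of its ESC counts on the coding gene, with quartiles of 0.935 and 7.81%. Over the 3 ESC libraries Lin28a held 1.40%, and 34.7% of the pairs were at or below it. Trim71 held 7.60%, and 74.4% of the pairs were at or below it. The Trim71 pair is not itself of this kind, because C130032M10Rik is listed as protein coding. In 77.6% of the pairs the coding gene held under 10% of the ESC counts.

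Hmga2 (ENSMUSG00000056758.15), the member known as the classic let-7 target, spans chromosome 10 from 120197180 to 120312374 on the minus strand, with 6772 exonic bases. It had 0 counts in all 6 libraries, which allows up to 2.90 CPM in an ESC library and up to 4.81 CPM in a neuron library. The opposite-strand gene 1700006J14Rik, which shares 140 exonic bases with it, had 2, 4 and 4 counts in ESC against 0 in neurons. The locus thus held at most 4 counts per library on these genes.

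Per kb of exon, the ESC order was Gm13061 (1067 CPM), C130032M10Rik (286 ± 81.5 CPM), Lin28a (2.49 ± 0.459 CPM), Trim71 (2.19 ± 0.698 CPM), Dis3l2 (0.200 ± 0.179 CPM), Lin28b (0.150 ± 0.132 CPM) and Hmga2 at 0. This order takes each count as lying on the strand to which it was deposited, and it may differ if the counting read the strands otherwise. Lin28a and Trim71 did not differ beyond their spread, nor did Dis3l2 and Lin28b. In neurons Trim71 led with 0.710 ± 0.486 CPM per kb, then Lin28a (0.233 ± 0.203), Lin28b (0.114 ± 0.0987) and Dis3l2 (0.0977 ± 0.169), and these neighbours overlapped within their spread. The promoters from 250 bases before to 50 after the start, from RefSeq (GRCm38.p6), are listed for 5 members. The GC box GGGCGG, sought on both strands, was in those of Lin28a, Trim71, Hmga2 and Dis3l2 and in 35.7% of 32851 promoters. The E-box CACGTG was in that of Lin28b and in 7.2% of promoters, and the octamer ATGCAAAT in none of the 5 and in 1.7%.

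The genes closest to the opposite-strand members were found by Euclidean distance between log2 CPM values (prior count 2) over the 6 libraries. Nearest to Gm13061 were Suv39h1 (distance 0.13), an H3K9 methyltransferase gene, then 2410017I17Rik, 4930417O13Rik, Lrriq4 and Myadml2os (0.25 to 0.93). Suv39h1 had 899, 766 and 756 counts in ESC against 0 in neurons, a fitted log2 fold change of −12.33, which was −2.11 when it was summed with Gm14820 opposite to it. The nearest to C130032M10Rik were Gm20478 (0.41), Npr1, Gm8655, Gm18632 and Foxd3 (0.47 to 0.76), of which Foxd3 encodes a transcription factor of pluripotent and neural crest cells. Foxd3 had 333, 210 and 241 counts in ESC against 0 in neurons. All 10 genes had at most 1 count in any neuron library, as the distance requires. Of the 10, Gm8655, Gm18632 and Foxd3 have no exon opposite to theirs, and Gm8655 and Gm18632 are processed pseudogenes whose counts are uncertain.

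The let-7 side of the axis was read from the transcripts that contain let-7 loci, since mature let-7 carries no poly(A) tail and was not measured in these polyadenylated RNA libraries. The 12 let-7 family hairpin genes had 0 counts in every library. Of the list of 17 loci and host transcripts, 3 could be tested and 3 were called (85.6% of all genes tested were), of which 2 stood higher in neurons and 1 lower. The list median of the log2 fold change was 7.75, against 0.37 over all genes tested, but it rests on 3 genes. The 2 noncoding hosts rose in neurons from 0 counts in every ESC library. Both passed the low-count filter through their neuron counts alone, so they could only be called higher. The size of their fitted change depends on the prior count. The same holds, in either direction, for other tested genes with 0 counts throughout 1 group. Further list genes had few counts in 1 group and passed the filter through the other. Among them are Myc, Ccnd2, Adar, Hras, Cdc34, Drosha, Ran and Hnrnpa1. The direction of their calls was largely set by the filter. With genes summed by locus, 5 loci were called, 4 higher and 1 lower. Of these 4, the loci of Mirlet7e and Mirlet7f-1 (log2 fold changes 3.90 and 1.08) drew their counts mainly from genes opposite the hairpin genes, which themselves had 0 counts.

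Mir100hg (listed as 3110039I08Rik, ENSMUSG00000074415.16, chromosome 9 from 41238373 to 41628290) contains Mirlet7a-2. It had 29, 21 and 29 counts in neurons and 0 in each ESC library, or 38.5 ± 7.62 CPM in neurons (SD, n = 3). It was at least 14.7-fold higher in neurons (fitted log2 fold change 8.15, SE 0.73, edgeR adjusted p 1.42e-12). Gm48740 and Gm48742, on the opposite strand, likewise had 0 counts in ESC, and 65, 57 and 48 and 71, 60 and 46 counts in neurons. They were at least 31.3-fold and 32.5-fold higher (log2 fold changes 9.25 and 9.30, edgeR adjusted p 8.99e-17 and 7.52e-17). At this locus both strands moved in the same direction.

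Mir99ahg (ENSMUSG00000090386.12, chromosome 16 from 77033184 to 77570315) contains Mirlet7c-1. It had 0 counts in ESC against 23, 18 and 19 in neurons, or 29.1 ± 1.98 CPM (SD, n = 3). It was at least 11.1-fold higher (log2 fold change 7.75, SE 0.77, edgeR adjusted p 1.87e-11), and 9430053O09Rik opposite to it had 0 counts in ESC against 20, 14 and 12 in neurons. Lncppara, the host of Mirlet7b and Mirlet7c-2, had 0 counts in ESC against 6, 2 and 3 in neurons, and was too low to be tested. These 3 noncoding hosts had counts in every neuron library and 0 in each ESC library. D630033A02Rik, which contains Mirlet7i, did not follow them, with 1, 0 and 2 counts in ESC against 2, 1 and 1 in neurons.

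The coding hosts Huwe1 and Wdr82 stood higher in the ESC libraries in CPM on TMM-scaled totals. Huwe1, a ubiquitin ligase gene whose intron holds Mir98 and Mirlet7f-2, had 34, 14 and 33 counts in ESC against 5, 7 and 4 in neurons. It fell by 1.56 on the log2 scale (SE 0.41, edgeR adjusted p 6.76e-04). On total counts it was not called (−0.84, edgeR adjusted p 0.0641). Under the housekeeping scaling it stood at 1.13, a change of sign. Wdr82, which holds Mirlet7g, had 13, 10 and 12 counts in ESC against 3, 4 and 3 in neurons and was not tested. Its mean was 10.1 CPM in ESC and 4.895 CPM in neurons, and its level under other scalings is not given here. For the cluster of Mirlet7a-1, Mirlet7d and Mirlet7f-1, the containing transcript 6720427I07Rik had 0 counts in ESC against 0, 1 and 1 in neurons. ENSMUSG00002075428.1, opposite Mirlet7f-1, had 14, 8 and 11 counts in ESC against 10, 19 and 10 in neurons. Its mean was 9.41 CPM in ESC and 19.1 CPM in neurons (log2 fold change 0.99, edgeR adjusted p 0.0178). Spaca6, a gene of sperm and egg fusion that contains Mirlet7e, had 0, 2 and 1 counts in ESC against 6, 3 and 8 in neurons and was not tested. A gene with no symbol opposite Mirlet7e, ENSMUSG00002075603.1, rose from 1 count in each ESC library to 8, 9 and 13 in neurons (log2 fold change 3.88, edgeR adjusted p 1.10e-07).

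**Figure D3:**
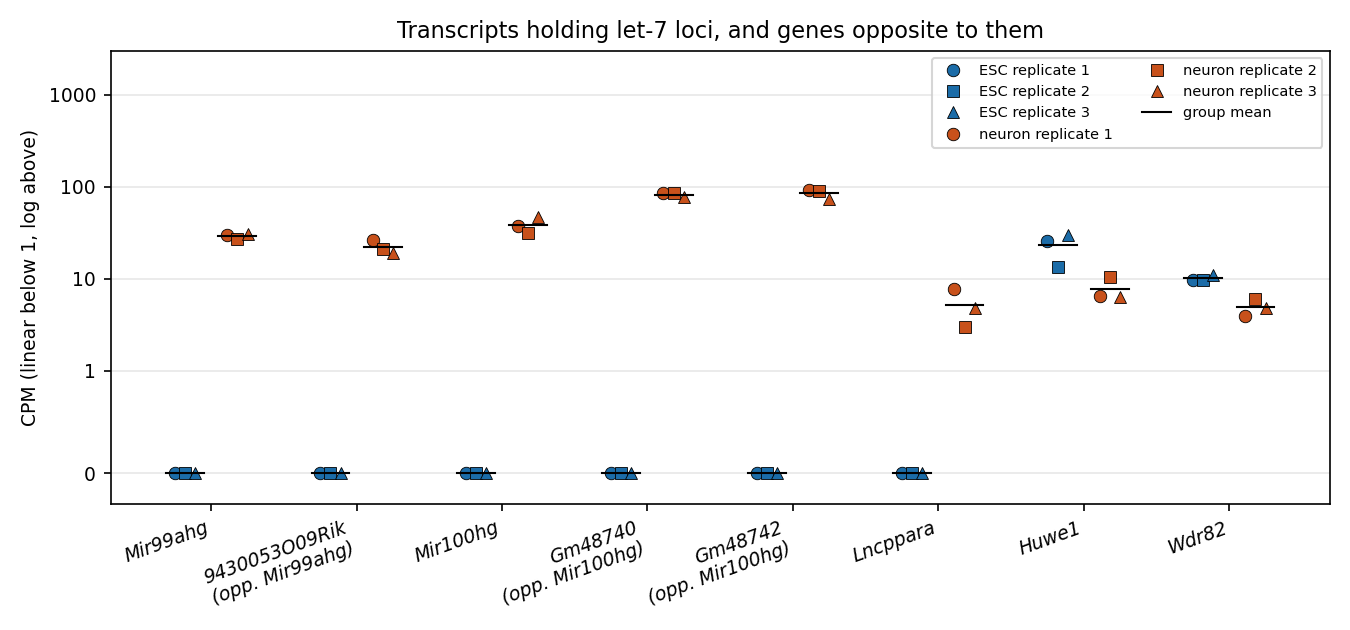
Level in every library, in CPM (linear below 1, logarithmic above), of transcripts that hold let-7 loci and of the genes opposite to them, with blue for ESC, orange for neuron libraries and a bar at each group mean. Mir99ahg, Mir100hg and their opposite-strand genes are at 0 in ESC and between 19.2 and 92.7 CPM in neurons. Huwe1 and Wdr82 are higher in ESC on this scale, which for Huwe1 depended on the scaling.

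Among 28 genes of microRNA processing, silencing and precursor tailing, 10 were tested and 9 were called by edgeR (90.0%, against 85.6% of all genes), of which 3 stood higher in neurons and 6 lower. Their median log2 fold change was −0.91. Drosha, the nuclear RNase that cuts primary microRNA transcripts, fell from 23, 14 and 19 counts in ESC to 2, 1 and 0 in neurons (log2 fold change −3.35, SE 0.61, edgeR adjusted p 4.75e-06). Under the housekeeping scaling Drosha was at −0.75 (edgeR adjusted p 0.359). Ran, the GTPase of nuclear export, and Hnrnpa1, an RNA-binding protein that contacts let-7 primary transcripts, fell by 6.02 and 6.16 on the log2 scale (edgeR adjusted p 2.76e-11 and 7.24e-09). Both remained lower under the housekeeping scaling, at −3.59 and −3.71 (edgeR adjusted p 4.05e-04 and 6.12e-04). Drosha, Ran and Hnrnpa1 have no exon opposite to theirs, which does not settle from which strand their counts came. Ran and Hnrnpa1, like Hmga1 below, have processed pseudogenes of near-identical sequence, so their counts are uncertain. Ddx17, a helicase of the Drosha complex, fell by 2.34 (edgeR adjusted p 1.30e-05) but was at 0.35 under the housekeeping scaling. It was at −0.27 (edgeR adjusted p 0.348) when summed with Kdelr3 opposite to it. Kdelr3 shares only 4 exonic bases with Ddx17, so this sum mainly adds the counts of another gene. Srrt and Xrn2, at −1.0 and −0.83, were not called on total counts (−0.27 and −0.1, edgeR adjusted p 0.507 and 0.791). Both also changed sign under the housekeeping scaling, to 1.67 and 1.85. Xrn2 lost its call without neuron replicate 1 (edgeR adjusted p 0.0795) or 2 (edgeR adjusted p 0.0621).

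The tailing enzymes that act with LIN28 held few counts on their own strand. Tut7 had 7, 3 and 4 counts in ESC against 19, 18 and 7 in neurons and rose (log2 fold change 2.36, SE 0.44, edgeR adjusted p 7.77e-06). Its opposite-strand gene Etohd2 held 575, 430 and 456 counts in ESC against 194, 197 and 192 in neurons. The summed locus, which also holds Isca1, fell by 0.47 (edgeR adjusted p 4.16e-04). The direction thus differed between Tut7 alone and its locus. Tut4 had 15, 6 and 10 counts in ESC against 7, 11 and 5 in neurons and was not tested. Its libraries overlapped between the groups. Tarbp2, a Dicer partner with no opposite-strand gene, rose by 1.53 (SE 0.38, edgeR adjusted p 3.65e-04). Adar, the RNA-editing enzyme, rose by 3.70 (edgeR adjusted p 1.20e-06), from 5, 0 and 0 counts to 20, 15 and 7, and the locus summed with Chrnb2 moved by 0.31 (edgeR adjusted p 0.00662). Dgcr8, the Drosha partner, had 7, 5 and 5 counts in ESC against 12, 11 and 3 in neurons, while Trmt2a opposite to it had 4796, 4240 and 4049 against 115, 95 and 104 (log2 fold change −4.63, edgeR adjusted p 5.32e-30).

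Among 35 genes known as let-7 targets, the members left out, 13 were tested and 11 were called by edgeR (84.6%, against 85.6% of all genes), 6 higher and 5 lower in neurons. Their median log2 fold change was 0.12, against 0.37 over all genes tested, so the list moved in both directions. Without ESC replicate 1, 2 or 3 the count was 6, 6 and 7, with 7 or 8 genes left to test. Under the housekeeping scaling the split was 9 higher and 1 lower. When genes were summed by locus, 13 of 17 loci were called, 3 higher and 10 lower. In the untranslated regions 24 of the 35 (68.6%) held a let-7 seed match, against 9.0% of all genes and 5 of the 28 processing genes (17.9%). The list was made of genes already known as targets, and region length was not matched, so this share is a description only.

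The growth and cell-cycle targets did not share a direction. Among those that fell, Hras held 0 seed matches, and Cdc34, Rrm2 and Hmga1 held 1 each. Igf2bp1, an oncofetal RNA-binding protein gene with 4 seed matches, fell from 40, 28 and 23 counts to 1, 4 and 1 (log2 fold change −3.11, SE 0.49, edgeR adjusted p 3.99e-07). Gm29202 opposite to it fell from 314, 290 and 199 to 3, 2 and 0 (−6.50, edgeR adjusted p 1.04e-18), so here both strands fell. Hras, Cdc34 and Rrm2, which encode a small GTPase, a ubiquitin-conjugating enzyme and a ribonucleotide reductase subunit, fell by 4.84, 3.55 and 2.77 (edgeR adjusted p 2.54e-07, 3.11e-06 and 7.09e-07) and have no exon opposite to theirs. Under the housekeeping scaling Hras remained lower (−2.41, edgeR adjusted p 0.0327), while Igf2bp1, Cdc34 and Rrm2 were at −0.47, −0.94 and −0.11 (edgeR adjusted p 0.481, 0.272 and 0.856). Hmga1, the paralogue of Hmga2, had 83, 38 and 68 counts in ESC against 13, 11 and 10 in neurons, with a log2 fold change of −1.70 (edgeR adjusted p 2.15e-06) that turned to 1.00 under the housekeeping scaling.

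Of the named targets that rose, Myc, Ccnd1 and Ccnd2 held 0 seed matches, and Igf2bp3 and E2f5 held 1 each. Myc has no opposite-strand gene. It went from 0, 2 and 0 counts in ESC to 8, 11 and 9 in neurons (log2 fold change 4.27, SE 0.65, edgeR adjusted p 1.79e-07). Igf2bp3 rose from 53, 50 and 53 counts to 132, 128 and 123 (log2 fold change 2.04, SE 0.18, edgeR adjusted p 5.91e-13). Malsu1, a mitoribosome assembly gene whose exons cover 1529 bases of it in antisense, had 2025, 1586 and 1701 counts in ESC against 39, 60 and 40 in neurons, and the summed locus fell by 2.61 (edgeR adjusted p 4.72e-20). The cyclin gene Ccnd1 rose by 2.61 (edgeR adjusted p 9.93e-12), from 20, 15 and 17 counts to 59, 57 and 73. LTO1 opposite to it fell from 1539, 1851 and 1378 to 49, 62 and 30, and the summed locus fell by 3.11 (edgeR adjusted p 6.16e-12). At both loci the direction thus reversed with the strands read together. Ccnd2 rose by 3.56 (edgeR adjusted p 1.19e-06), and Gm43126 opposite to it rose from 2, 2 and 1 counts to 360, 320 and 282 (log2 fold change 8.21, edgeR adjusted p 4.56e-27). E2f5, a cell-cycle transcription factor gene, rose by 0.76 (edgeR adjusted p 0.00414), and without neuron replicate 2 it was not called (edgeR adjusted p 0.0667). Map4k4 and Ezh2 were not called, at −0.55 and 0.12 (edgeR adjusted p 0.167 and 0.795).

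**Figure D4:**
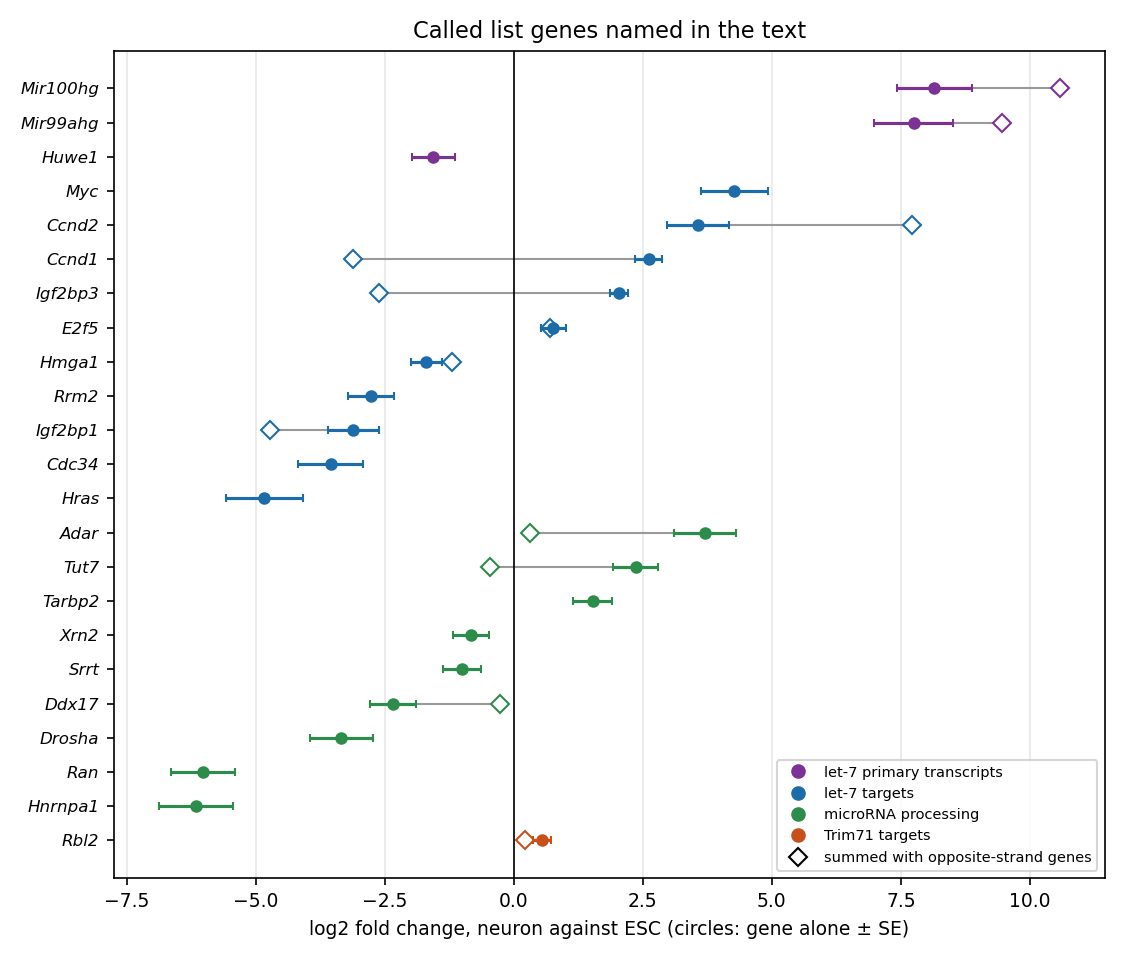
Log2 fold change (neuron against ESC) of the called list genes named in the text, with circles and SE bars for the gene alone. Open diamonds show the locus sum, which adds all genes linked to it by opposite-strand exonic overlap, directly or through another gene. For Ccnd1 and Igf2bp3 the diamond (−3.11 and −2.61) lies on the other side of 0 from the circle (2.61 and 2.04), whereas Mir100hg and Mir99ahg lie above 7 on both readings.

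The 4 lists had 30 opposite-strand partner genes in 30 pairs, and 27 partners were tested. Of these, 24 were called by edgeR (88.9%, against 85.6% of all genes), 10 higher and 14 lower, with a median log2 fold change of −0.56. More ESC counts lay on the partner than on the list gene in 22 of the 30 pairs, and more neuron counts in 21. In the 16 pairs with both genes tested, 10 had the same sign and 6 opposite signs. The partner with the lowest log2 fold change was Gm14261 at the stem cell factor gene Sall4, with 465, 573 and 316 counts in ESC against 0 in neurons. In neurons it was lower by at least 90.2-fold (fitted change −11.51 in log2, edgeR adjusted p 2.96e-06), while Sall4 itself had 7, 14 and 9 counts in ESC against 0, 2 and 0 in neurons. Gm49774 at Hmga1 fell by 5.72 (edgeR adjusted p 2.00e-14), and 9330179D12Rik at Ccnd2 rose from 0 to 21, 20 and 14 counts (at least 10.1-fold, edgeR adjusted p 4.61e-11). Sall4, like Lin28a and Trim71, thus had most ESC counts on the gene opposite, as did most of the 30 pairs.

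Among 8 mRNAs known to be bound or repressed by TRIM71, 1 could be tested. Rbl2, a retinoblastoma family gene, had 133, 126 and 97 counts in ESC against 109, 111 and 89 in neurons and rose by 0.54 (SE 0.17, edgeR adjusted p 0.00362). The call was lost without ESC replicate 3 (edgeR adjusted p 0.102) and when Rbl2 was summed with Gm45464 and Aktip opposite to it (0.21, edgeR adjusted p 0.0883). Leaving out neuron replicate 1, 2 or 3 gave 2 calls each, 1 higher and 1 lower. Cdkn1a, the cell-cycle inhibitor gene repressed by TRIM71, had 17, 9 and 19 counts in ESC against 2, 1 and 2 in neurons and was not tested. AC167363.2 opposite to it fell from 585, 404 and 445 to 139, 115 and 98 (log2 fold change −1.27, edgeR adjusted p 2.91e-11).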

How the data were processed

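The authors deposited raw counts per gene with positions, strand and length. Per the submitters' processing notes, cutadapt, STAR, RSEM and GRCm39 (mm39) were used, and the columns are named for STAR alignments. The counting tool, its strand setting and all versions are not given in the sources used here. The deposited gene length column equalled the merged exons in 100% of genes and was used for values per kb. Positions are as deposited. Symbols and transcript sequences came from GENCODE M21, and microRNAs and promoters from RefSeq (both GRCm38), with a symbol for 52029 of 57010 genes, and no coordinate was converted. Mirlet7dhg was not matched.

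Counts were fitted in edgeR 4.0.16 (R 4.3.3): filterByExpr (minimum count 10, 7150 genes), TMM, glmQLFit (robust), glmQLFTest, all 6 libraries, Benjamini-Hochberg over all tested genes, threshold 0.05. TMM factors were 0.774 to 0.779 in ESC and 1.28 to 1.30 in neuron libraries. CPM used TMM-scaled totals. The SE is the size of the log2 fold change over the square root of F, which is approximate. Overlaps of at least 1 exonic base came from bedtools 2.31.1. A summed locus adds all genes linked by such opposite-strand overlaps, directly or through another gene. It can therefore hold more than a gene and the genes opposite to it. A fold against libraries at 0 is a bound from 3 counts per library. Libraries were grouped by title, and 0 columns were left unmapped. The edgeR fit was tested on simulated data with 200 of 7150 genes changed 4-fold, of which 86% were recovered with 4.97% false calls. In the data 85.6% of genes were called, so this does not test TMM where most genes differ.

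The members, the lists and the rule for named genes were chosen with earlier results of these data known. The rule named the members, their opposite-strand genes, the 4 highest and 4 lowest called genes of each list and of the partners whose groups do not overlap, and the 5 genes nearest to Gm13061 and to C130032M10Rik. Further genes named for their role (Tut4, Dgcr8, Wdr82, Lncppara, 6720427I07Rik, Sall4, Cdkn1a, Hmga1, E2f5, Map4k4, Ezh2, ENSMUSG00002075603.1 and some partners) were chosen after their values were seen, and 1 let-7 target counted among the calls is not reported here. Alternatives were DESeq2 1.42.0 size factors and Wald test, total counts, housekeeping scaling, 2 other filters, limma-voom 3.58.1, a replicate block, locus sums and leaving out each replicate.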

Additional observations from a re-analysis of the deposited data

How the results depend on the processing

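The 4 lists, their partners and the 3 fitted members were recomputed under each alternative, except that Trim71 did not pass the filter without ESC replicate 1, 2 or 3. Gm13061 and C130032M10Rik kept their direction under every one, but with 0 counts in every neuron library this could hardly turn out otherwise. Trim71 turned to 1.08 under the housekeeping scaling. With no filter, 11762 of 28820 genes, 17 let-7 targets (6 higher, 11 lower) and 3 Trim71 targets were called. A mean of at least 10 counts left 4 processing genes. Locus sums gave 5 let-7 primary transcript loci and 2 Trim71 target loci. Among list genes with no opposite-strand partner, chosen after seeing the data, 4 let-7 targets (1 higher, 3 lower) and 1 primary transcript were called. The cause of these shifts was not tested, apart from the larger or smaller number of genes tested. Leaving out each replicate gave 5430 to 7353 genes, 6 to 13 let-7 targets, 7 to 11 processing genes, 2 to 3 primary transcripts, 0 to 2 Trim71 targets and 20 to 23 partners. The housekeeping scaling called 5599 genes higher and 751 lower, and total counts 4050 and 2136. Of processing genes, the housekeeping scaling called 6 higher and 2 lower, and total counts 4 and 4. For partners these were 19 and 7, and 12 and 11.

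Same-numbered libraries did not deviate together (r 0.019, 0.0039 and −0.022, against a mean of −5.2e-05 for other pairs, across genes, which are not independent replicates). The numbers therefore do not pair the samples. A fit with the replicate block called 6088 genes in place of 6119 and left the list counts at 11, 9, 3, 1 and 24.

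With 513425 to 1775055 counts per library, Lin28b, Hmga2 and Dis3l2 were at or near the floor of 3 counts. Whether depth or the strand counted set their low counts was not tested.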
